A study of Mus musculus with 24 samples.

Results

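The brain makes its own cholesterol, and 36 mouse genes that make, sense or move it were followed here in brain RNA from 4 groups of mice. The genes were chosen by name from the pathway, with earlier results of these data known: 18 enzymes of synthesis, Ggps1 on the isoprenoid side branch, 7 genes of sensing and control, 8 of transport and 2 of turnover and storage. All 36 were matched by Ensembl identifier to a GRCm38 symbol among the 52636 identifiers of the count tables. All 36 also passed the filter on low counts, which left 19726 genes. RNA sequencing covered 24 mice, 6 in each group, and the comparison of main interest sets the synthesis genes against the transport genes. The mice come from 2 lines aimed at EAAT2, the glutamate transporter encoded by Slc1a2: a syn-Cre line for neurons and a gfap-Cre line for astrocytes. The syn-Cre-positive mice are labelled EAAT2 −/− and the gfap-Cre-positive mice EAAT2 Δ/+, while both Cre-negative groups carry the label EAAT2 +/+. Line, targeted cell type and the genotype of the Cre-positive mice therefore change together and cannot be told apart. The sources used here do not give age, sex, strain, the Cre driver constructs, the deleted stretch of Slc1a2 or the part of the brain taken. The RNA is from tissue: markers of neurons, astrocytes, oligodendrocytes, microglia and vessels were read in every library of both lines, none of them at 0. In such bulk RNA, fewer cells of a type and less RNA per cell cannot be told apart.

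Cholesterol synthesis starts from acetyl-CoA, runs through the mevalonate steps to squalene, and closes the rings of squalene to reach lanosterol and then cholesterol. The transcription factor SREBP-2, encoded by Srebf2, drives these enzymes when sterols are low: Scap escorts it out of the endoplasmic reticulum, and Insig1 and Insig2 hold it back when sterols are high. Excess sterol activates the nuclear receptors LXRα and LXRβ (Nr1h3 and Nr1h2), which drive export through Abca1 and Abcg1 and the degradation of lipoprotein receptors through Mylip. In adult brain, astrocytes supply much of the cholesterol that neurons use, carried on Apoe particles, oligodendrocytes need large amounts for myelin, and neurons dispose of the surplus through Cyp46a1.

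The promoters of most synthesis genes hold a short sequence, and 4 of them are printed to show it beside those of 2 transport genes that lack it. CCAAT is the site of NF-Y, a factor known to work beside SREBP at sterol-responsive promoters. The sequences are the 250 bases before the annotated start, 5′ to 3′ on the gene's strand, from RefSeq on GRCm38.p6. Capitals mark CCAAT on either strand (ATTGG when it lies on the other) and, in Hmgcs1, a match to the sterol element TCACNCCAC.
Hmgcs1, chr13:119690101-119690350, plus strand: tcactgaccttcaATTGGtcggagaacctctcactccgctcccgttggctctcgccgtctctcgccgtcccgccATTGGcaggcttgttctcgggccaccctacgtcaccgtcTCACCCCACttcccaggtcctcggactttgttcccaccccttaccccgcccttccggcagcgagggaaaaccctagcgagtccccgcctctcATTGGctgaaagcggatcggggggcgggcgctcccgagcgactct
Mvk, chr5:114444019-114444268, plus strand: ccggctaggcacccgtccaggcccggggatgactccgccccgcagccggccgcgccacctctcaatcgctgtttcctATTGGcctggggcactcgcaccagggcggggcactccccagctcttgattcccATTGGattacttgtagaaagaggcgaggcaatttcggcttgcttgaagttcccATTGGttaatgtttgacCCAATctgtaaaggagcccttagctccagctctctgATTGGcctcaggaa
Mvd, chr8:122443423-122443672, minus strand: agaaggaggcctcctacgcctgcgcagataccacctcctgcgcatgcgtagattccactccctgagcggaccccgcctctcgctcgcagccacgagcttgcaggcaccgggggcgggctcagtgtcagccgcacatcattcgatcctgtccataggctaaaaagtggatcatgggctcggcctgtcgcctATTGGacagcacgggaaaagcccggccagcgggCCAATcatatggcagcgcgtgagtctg
Nsdhl, chrX:72918271-72918520, plus strand: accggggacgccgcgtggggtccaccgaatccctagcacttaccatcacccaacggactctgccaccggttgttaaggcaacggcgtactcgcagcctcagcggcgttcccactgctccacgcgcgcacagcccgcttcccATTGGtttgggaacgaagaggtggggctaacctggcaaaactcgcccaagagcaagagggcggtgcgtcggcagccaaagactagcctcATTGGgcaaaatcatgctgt
Abca1, chr4:53159896-53160145, minus strand: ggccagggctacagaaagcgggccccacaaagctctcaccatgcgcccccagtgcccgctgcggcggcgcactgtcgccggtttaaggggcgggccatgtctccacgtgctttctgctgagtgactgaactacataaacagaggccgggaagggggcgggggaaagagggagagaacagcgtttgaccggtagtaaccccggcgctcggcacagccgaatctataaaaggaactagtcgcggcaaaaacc
Apoe, chr7:19699189-19699438, minus strand: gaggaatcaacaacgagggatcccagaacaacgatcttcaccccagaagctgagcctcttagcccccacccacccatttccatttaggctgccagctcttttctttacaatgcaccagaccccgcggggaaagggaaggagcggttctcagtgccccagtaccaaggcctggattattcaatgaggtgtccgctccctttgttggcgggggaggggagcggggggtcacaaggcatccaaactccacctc

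The promoter table matched 30 of the 36 genes, 15 of them synthesis genes and 5 of them transport genes. Sqle, Fdft1, Fdps, Stard4, Npc1 and Abcg1 had no entry. A gene with several annotated starts was counted if the window before any of them matched. CCAAT, on either strand, stood in the 250 bases of 14 of the 15 synthesis promoters (93.3%), Acat2 being the exception. It stood in 9 of the 15 other members (60%) and in 2 of the 5 transport promoters, Mylip and Npc2. For comparison, 39.6% of the 13033 tested genes in the table and 37.5% of all 27025 genes of the table held it. At least 2 copies were present in 60% of the synthesis promoters against 13.9% of the tested genes, and Mvk, with 5, had the most. On the forward strand alone the share was 40% in the synthesis promoters and 22.9% in the tested genes. The GC box GGGCGG, the site of Sp1, on either strand, was also in 93.3% of the synthesis promoters, where 59% of the tested genes held it, and in 4 of 5 transport promoters (80%). The median GC content was 62.8% in the synthesis promoters, 62% in the transport promoters and 59.2% in the tested genes. The classic sterol regulatory element, searched on both strands, was in none of the 30 members with an entry, and in 0.0814% of all genes of the table. The looser form TCACNCCAC, on either strand, takes in the classic element and was searched after that result was known. It was in Hmgcs1 and in 1.22% of all genes of the table. The E-box CACGTG, added likewise, was in 3 of 15 synthesis promoters (Hsd17b7, Sc5d and Dhcr7) and in Scap, Insig1 and Abca1, against 9.21% of the tested genes. These are matches of letters in a fixed window, not measured binding.

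Counts in genes came to between 41596313 and 69652824 per library, and levels are given in CPM, counts relative to the TMM-scaled library size. Slc1a2 itself was not called in either line, with log2 fold changes of −0.14 (SE 0.08) in the syn line and −0.015 (SE 0.08) in the gfap line, edgeR adjusted p = 1.00 in both. Its count sums the whole gene and does not test the deletion, so directions below are between libraries as labelled. Libraries are numbered within a group only to name them. Library gfap-Cre-negative 4 stood apart, on these genes and over all genes tested. It was the highest of its group for 11 of 18 synthesis genes (61.1%) and 2 of 8 transport genes (25%), against 28.9% of all genes tested. It was the lowest for 1 of 18 synthesis genes (5.56%) and 4 of 8 transport genes (50%), against 27.8%. Library syn-Cre-negative 5 stood apart in its read summary, with 7.46% ambiguous and 4.71% unaligned reads where the other 5 of its group had 3.19 to 3.92% and 1.42 to 2.03%. Without it no member was called in the neuronal comparison, 16 of 18 synthesis genes were negative there, and 10 members were called between the Cre-negative groups. In the syn line, 3 libraries of each group held Ttr, the leading choroid plexus gene, above 1000 CPM, and these 6 are called Ttr-rich below. The 10 choroid plexus markers summed to between 283.6 and 7337 CPM in the syn libraries and between 212.6 and 533.5 CPM in the gfap libraries. Results that rest on these libraries are given with and without them.

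Levels of the 36 genes, set per kilobase of exon so that genes can be compared, spanned more than 3 orders of magnitude. Exon length merges all annotated exons of a gene and may exceed that of the transcript expressed, so the order of genes is approximate. Apoe, the main lipid carrier that astrocytes secrete, was highest at 601 CPM per kilobase over all libraries. Hmgcs1, which makes HMG-CoA, followed at 46.5, and Cyp46a1, the neuronal enzyme that turns cholesterol into 24-hydroxycholesterol, at 45.8. Srebf2 stood at 32.1 and Lrp1, a large receptor that takes up Apoe particles, at 30.5. Fdft1, which joins farnesyl groups into squalene, and Insig1 both stood at 21.8 CPM per kilobase. Most enzymes lay lower: Pmvk at 17.7, Sc5d at 15.1, Msmo1 at 14.2, Cyp51 at 13.3, Sqle at 12.2 and Acat2 at 12. Mvd (8.68), Nsdhl (7.64), Mvk (6.55), Dhcr7 (5.68), Ebp (5.48), Idi1 (4.38), Hsd17b7 (4.22), Tm7sf2 (3.46) and Lss (3.39) made up the lower part of the synthesis genes. Among the transport genes the exporters Abcg1 and Abca1 stood at 9.15 and 5.13, the lysosomal proteins Npc2 and Npc1 at 11.1 and 6.74, Mylip at 6.34 and the sterol carrier Stard4 at 4.90. The regulators other than Srebf2 and Insig1 were Insig2 at 15.6, Srebf1 at 13.5, Scap at 11.3 and Nr1h2 at 10.6. Ggps1, which feeds protein prenylation, stood at 12.3, and Soat1, which esterifies cholesterol for storage, at 4.28. Nr1h3 was far below its partner Nr1h2, at 0.996. Fdps was lowest at 0.309 CPM per kilobase, from 48 to 105 counts per library. Its level is uncertain: Gm43738 covers 26.7% of its exon bases on the same strand, and such reads may have been set aside as ambiguous.

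**Figure D1:**
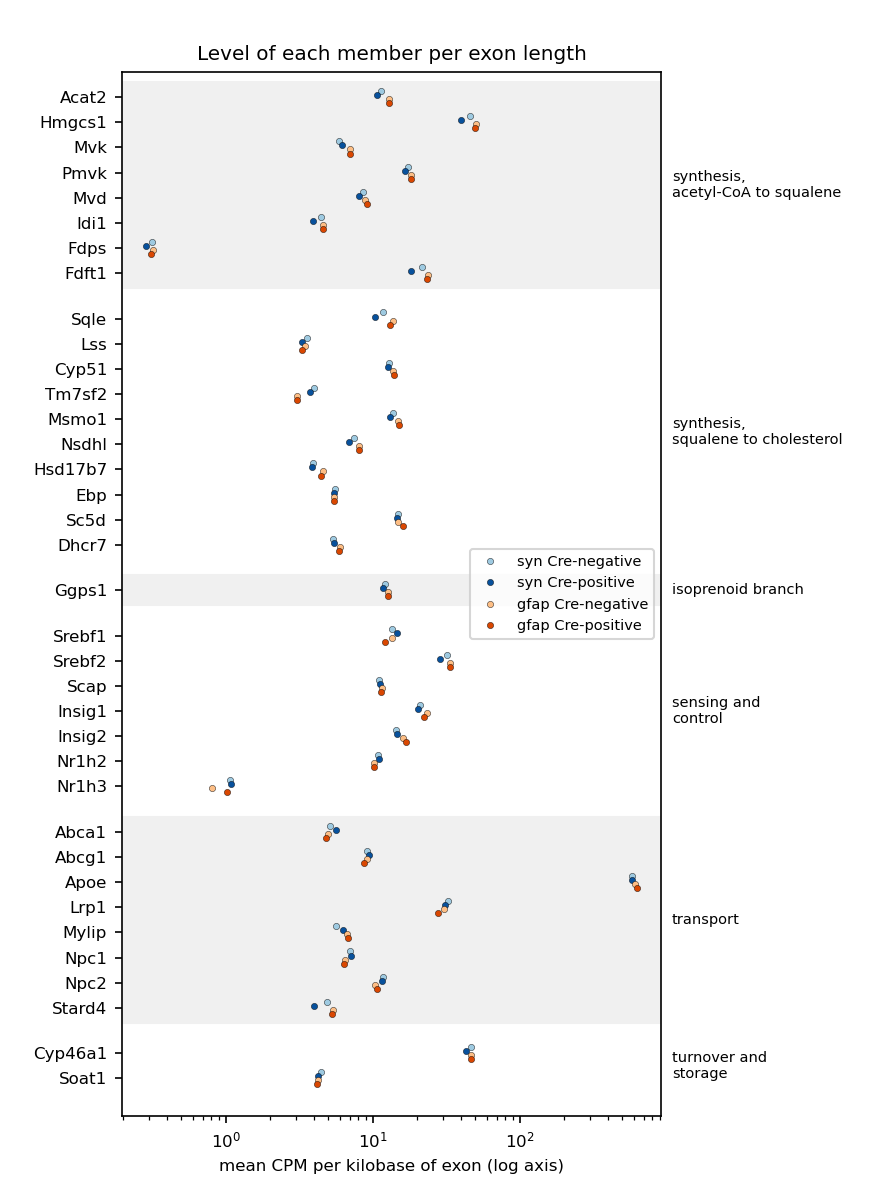
Mean CPM per kilobase of exon (log axis) of each of the 36 genes, 1 point per group of 6 mice, genes ordered by role. Apoe stands alone near 601, Nr1h3 and Fdps lie at 0.996 and 0.309, and for each gene the 4 groups lie close together.

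At the median, synthesis and transport genes varied less between animals than all genes tested. The sets were not matched for abundance, so the lower spread is not shown to be a trait of the pathway. The median coefficient of variation of the synthesis genes was 6.76% in the syn-Cre-negative group, 5.86% in syn-Cre-positive, 8.19% in gfap-Cre-negative and 6.00% in gfap-Cre-positive. Over all genes tested it was 12.3%, 11.0%, 13.5% and 11.3%. The transport genes stood at 7.57%, 5.27%, 9.78% and 9.97% in the same order.

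The neuronal comparison asks whether the genes differ between syn-Cre-positive and syn-Cre-negative brain. No member passed the test: 0 of 36 had an edgeR adjusted p under 0.05, in a comparison where 1 of 19726 genes (0.00507%) did. At an unadjusted p under 0.05 there were 7 members, where 922 genes (4.67%) reached it. DESeq2 called 0 members, and limma-voom with quality weights called 1, Fdft1. The values of the synthesis genes lay mostly on 1 side. These genes were read in the same mice and share a regulator, so here and below their signs are not independent. Of the 18, 16 had a negative log2 fold change, with a median of −0.096, where 51.4% of all genes were negative and their median was −0.0029. Of the 8 transport genes, 3 were negative and the median was 0.021.

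Early synthesis held the lowest p values. Fdft1, squalene synthase (chr14:63145150-63179578), lay between 75.3 and 84.8 CPM in the 6 syn-Cre-positive libraries, with a median of 76.1. In the syn-Cre-negative libraries it lay between 85.2 and 97.7 CPM, with a median of 90.7. The groups did not overlap, which was so for 0.0963% of genes with the Cre-positive group below. That is 14.8% less, a log2 fold change of −0.23 (SE 0.05, edgeR adjusted p = 0.343) with a 95% interval from −0.34 to −0.12. The limma-voom fit put it at −0.25, adjusted p = 0.0475, while DESeq2 gave adjusted p = 0.0797. Over all alternative settings its adjusted p ran from 0.0475 to 0.669. Exons of Ctsb on the opposite strand cover 18.3% of the exon bases of Fdft1, and the sources used here do not give the strand setting of the counting.

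Hmgcs1, HMG-CoA synthase (chr13:119690379-119708260), whose promoter is printed first above, lay between 167.8 and 194.5 CPM (median 184.0) in syn-Cre-positive libraries. The syn-Cre-negative libraries ran from 193.9 to 221.6 CPM, with a median of 212.4. The groups met at a single pair: 5 of 6 Cre-positive libraries were below the lowest Cre-negative one. The Cre-positive mean was 13.4% below, at a log2 fold change of −0.21 (SE 0.05, edgeR adjusted p = 0.359), and the 95% interval ran from −0.31 to −0.10. Sqle, squalene epoxidase, the first step past squalene (chr15:59315077-59331192), ran from 55.0 to 64.1 CPM (median 56.2) against 60.6 to 69.6 CPM (median 65.8). Again 5 of 6 Cre-positive libraries lay below all Cre-negative ones, and library syn-Cre-positive 5 was the highest of its group. The log2 fold change was −0.18 (SE 0.05, edgeR adjusted p = 0.579). Idi1, which interconverts the isoprene units, had −0.18 (SE 0.08, edgeR adjusted p = 0.984) with largely overlapping groups, 12.8 to 15.2 CPM against 12.8 to 19.1 CPM.

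The other 14 synthesis genes had unadjusted p values above 0.05. The early enzymes Acat2, Pmvk, Mvd and Fdps had log2 fold changes of −0.11, −0.085, −0.085 and −0.11. Past squalene, Lss, Nsdhl, Tm7sf2 and Msmo1 lay between −0.11 and −0.083, and Cyp51, Sc5d, Ebp and Hsd17b7 between −0.040 and −0.017. Mvk, mevalonate kinase (0.057, SE 0.09), and Dhcr7, the reductase that forms cholesterol from its last precursor (0.025, SE 0.05), were the 2 with positive values. Ggps1, on the side branch, stood at −0.051 (SE 0.05).

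Of the regulators, Srebf2 had the lowest p. It lay between 188.1 and 232.6 CPM (median 205.7) in syn-Cre-positive libraries and between 204.7 and 246.5 CPM (median 240.3) in syn-Cre-negative ones. The groups overlapped and the log2 fold change was −0.15 (SE 0.06, edgeR adjusted p = 1.00). Insig1, itself a target of SREBP, was at −0.036 (SE 0.08), 57.2 to 70.1 CPM against 52.7 to 75.7 CPM, so the Cre-positive range lay inside the Cre-negative one. Srebf1, whose product SREBP-1 serves fatty acid synthesis more, was at 0.10 (SE 0.08). Insig2, Scap, Nr1h2 and Nr1h3 lay between 0.0098 and 0.033.

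Among transport genes, Stard4, a cytosolic carrier that SREBP-2 also drives, had the sign of most synthesis genes. It ran from 19.1 to 25.4 CPM (median 22.3) in syn-Cre-positive libraries and from 24.8 to 28.9 CPM (median 28.1) in syn-Cre-negative ones, and 5 of 6 Cre-positive libraries lay below every Cre-negative one. Its log2 fold change, −0.30 (SE 0.08, edgeR adjusted p = 0.415, 95% interval −0.45 to −0.15), was the most negative of the 36. Mylip, the ligase that removes lipoprotein receptors, had the opposite sign: 18.5 to 21.7 CPM (median 20.4) against 17.2 to 19.6 CPM (median 17.8), log2 fold change 0.16 (SE 0.06, edgeR adjusted p = 0.956). Abca1, the exporter that loads lipid onto apolipoproteins, ran from 55.7 to 62.7 CPM against 46.6 to 61.1 CPM, log2 fold change 0.14 (SE 0.09, edgeR adjusted p = 1.00). Apoe was level at 0.0018 (SE 0.08), with 1085 to 1546 CPM against 1181 to 1315 CPM, a wider spread in the Cre-positive group. Abcg1 and Npc1 stood at 0.052 and 0.041, Npc2 at −0.026 and Lrp1 at −0.056. Cyp46a1 (−0.10, SE 0.06; 130.9 to 150.2 CPM against 132.8 to 171.9 CPM) and Soat1 (−0.074, SE 0.06) were not called.

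**Figure D2:**
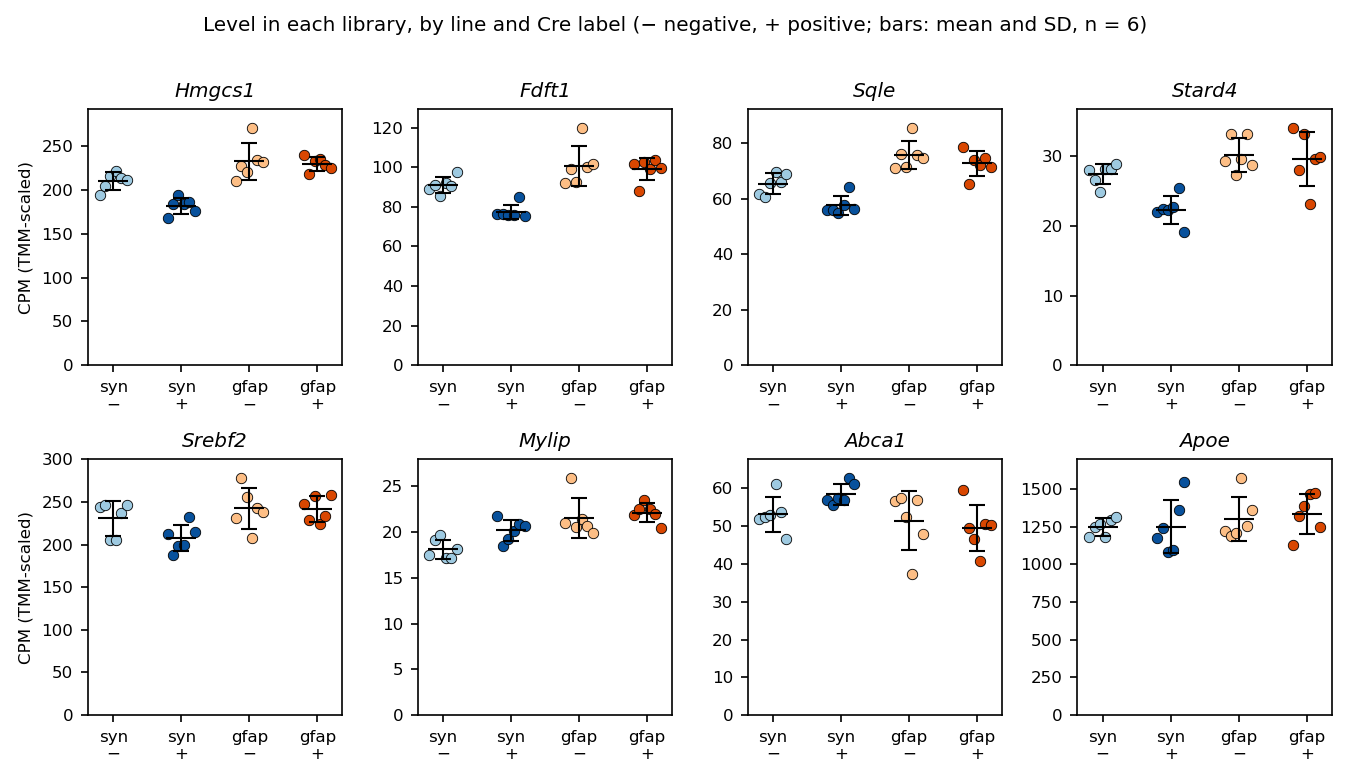
CPM in each library for 8 members, 1 point per mouse, with mean and SD (n = 6), for Cre-negative (−) and Cre-positive (+) groups of both lines. Fdft1 in syn-Cre-positive mice, 75.3 to 84.8 CPM, lies below all 6 syn-Cre-negative values, while the groups overlap for Srebf2, Abca1 and Apoe.

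Synthesis was set against transport within each library as the mean log2 CPM of the 18 synthesis genes minus that of the 8 transport genes. This difference averaged −1.70 ± 0.07 in syn-Cre-negative, −1.79 ± 0.06 in syn-Cre-positive, −1.62 ± 0.13 in gfap-Cre-negative and −1.60 ± 0.07 in gfap-Cre-positive libraries (SD, n = 6 each). In the syn line the Cre-positive libraries ran from −1.86 to −1.71 and the Cre-negative ones from −1.80 to −1.58, so the groups overlapped. CPM is not set per kilobase here, so the difference can be compared between groups but its level has no meaning of its own. With medians over members in place of means it averaged −1.14, −1.25, −0.99 and −0.97 in the order of groups above. With each gene scaled to its own spread over the 24 libraries it averaged −0.13, −0.83, 0.40 and 0.57. The synthesis mean moved from 4.86 ± 0.06 to 4.77 ± 0.04 log2 CPM, and the transport mean was 6.56 in both syn groups. Over fitted changes, the median of the synthesis genes minus that of the transport genes was −0.12. Without the 6 libraries with Ttr above 1000 CPM, which left 3 against 3, it was −0.0093, the synthesis median was −0.036 and 10 of 18 synthesis genes were negative. On those libraries Fdft1 (−0.24), Stard4 (−0.30), Sqle (−0.15) and Hmgcs1 (−0.15) kept their sign, and Srebf2 stood at −0.24. The 10 choroid plexus markers were all negative in this comparison over all 12 libraries, at a median of −0.49 and none called. Of the 10 oligodendrocyte markers 7 were positive, at a median of 0.11 and none called, with sums of 5910 to 7923 CPM in syn-Cre-positive and 5516 to 8488 CPM in syn-Cre-negative libraries. All 6 meningeal fibroblast markers were positive (median 0.50, none called), with sums of 73.3 to 112.1 CPM against 30.2 to 111 CPM. Of the 10 astrocyte markers 5 were positive, and Aqp4, the astrocytic water channel, rose (log2 fold change 0.55, SE 0.06, edgeR adjusted p = 2.0e-05), the single gene called in this comparison. Summed astrocyte markers ran from 2187 to 2267 CPM in syn-Cre-positive and from 2011 to 2299 CPM in syn-Cre-negative libraries. The part of these cells in the result was not tested further.

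**Figure D3:**
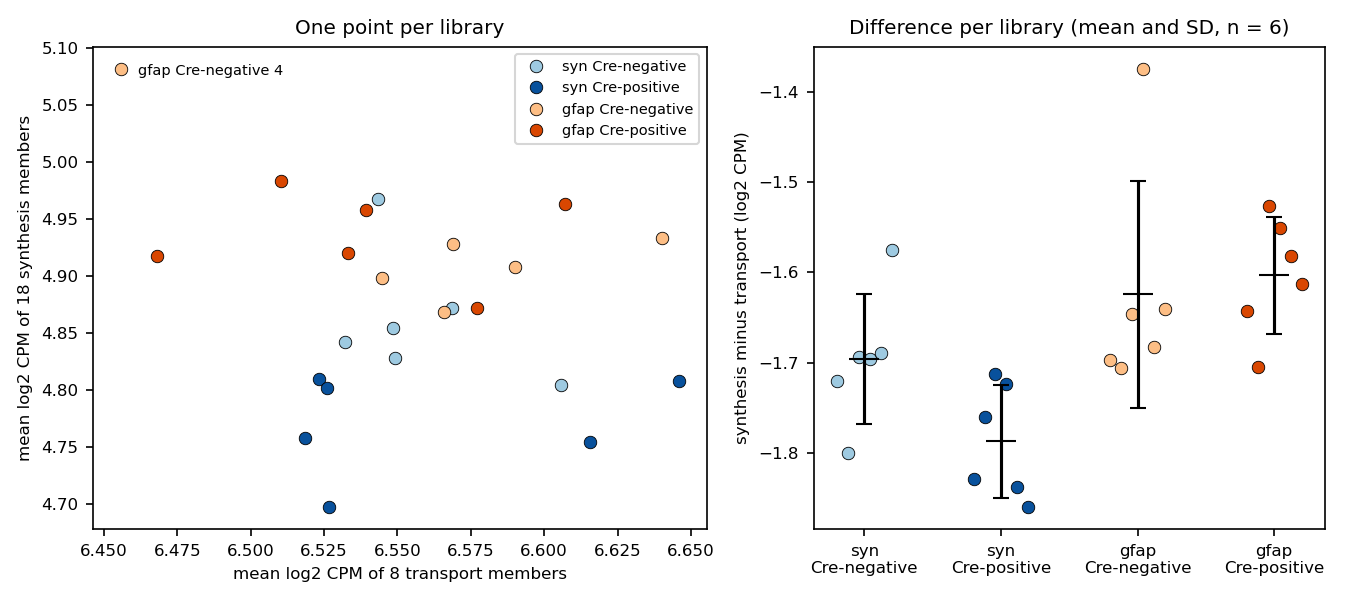
Left, mean log2 CPM of the 18 synthesis genes against that of the 8 transport genes, 1 point per library. Right, their difference per library with mean and SD (n = 6): syn-Cre-positive libraries average −1.79, and gfap-Cre-negative 4, at −1.37, lies above all others.

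The astrocytic comparison sets gfap-Cre-positive against gfap-Cre-negative brain, and here the synthesis genes showed no common direction. No member was called by edgeR, DESeq2 or limma-voom, in a comparison with 2 genes called (0.0101%). At an unadjusted p under 0.05 there were 2 members, Sc5d and Nr1h3, where 590 genes (2.99%) reached it. Of the 18 synthesis genes 7 were negative, with a median of 0.0040, and of the 8 transport genes 5 were negative, with a median of −0.025, where 51.2% of all genes were negative. The synthesis count depended on the scaling, with 11 negative under RLE factors. Of the cell markers, all 10 of oligodendrocytes were negative (median −0.083). All 10 of microglia (0.077) and all 8 of endothelium (0.071) were positive. Of 10 astrocyte markers 9 were positive (0.039), and of 10 neuron markers 8 were negative (−0.017). None of these was called, and the part of these cells was not tested.

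Sc5d, a desaturase of the late pathway (chr9:42251595-42264256), was the gene whose groups did not overlap. It ran from 75.9 to 81.5 CPM (median 77.6) in gfap-Cre-positive and from 68.4 to 74.5 CPM (median 74.0) in gfap-Cre-negative libraries. That is 7.06% more, a log2 fold change of 0.10 (SE 0.05, edgeR adjusted p = 1.00) with a 95% interval from 0.0061 to 0.19. Groups did not overlap in this direction for 0.122% of all genes. Nr1h3, the less abundant LXR, ran from 1.99 to 2.99 CPM (median 2.58) against 1.56 to 2.59 CPM (median 2.01), log2 fold change 0.34 (SE 0.14, edgeR adjusted p = 1.00), on 80 to 148 counts per library. Srebf1, itself driven by LXR, ran from 66.7 to 71.5 CPM (median 68.3) against 69.4 to 82.3 CPM (median 77.1), log2 fold change −0.15 (SE 0.08, edgeR adjusted p = 1.00). In 4 of 6 Cre-positive libraries Srebf1 was below every Cre-negative one.

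The genes with the lowest p in the neuronal comparison lay close to 0 here. Fdft1 was at −0.025 (SE 0.05), 88.1 to 103.7 CPM against 91.8 to 119.6 CPM, and Hmgcs1 at −0.015 (SE 0.05), 218.1 to 240.2 CPM against 210.1 to 270.3 CPM. Stard4 was at −0.028 (SE 0.08), Sqle at −0.058 (SE 0.05) and Srebf2 at −0.0046 (SE 0.06). Lss, which closes the rings (−0.072, SE 0.07), and Insig2 (0.075, SE 0.05) completed the genes with the lowest p. Abca1 was at −0.055 (SE 0.09), Insig1 at −0.067 (SE 0.08), Apoe at 0.039 (SE 0.08) and Cyp46a1 at −0.0057 (SE 0.06), each with overlapping groups. Lrp1, at −0.13 (SE 0.10), ran from 374.7 to 572.0 CPM in Cre-positive and from 368.3 to 608.7 CPM in Cre-negative libraries. Without library gfap-Cre-negative 4 the median of synthesis minus transport genes was 0.088, against 0.029 with it, and 5 synthesis genes were negative. Without library gfap-Cre-negative 1 it was −0.0024 and 13 of 18 synthesis genes were negative, so neither the sign nor the count held when 1 library was left out.

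**Figure D4:**
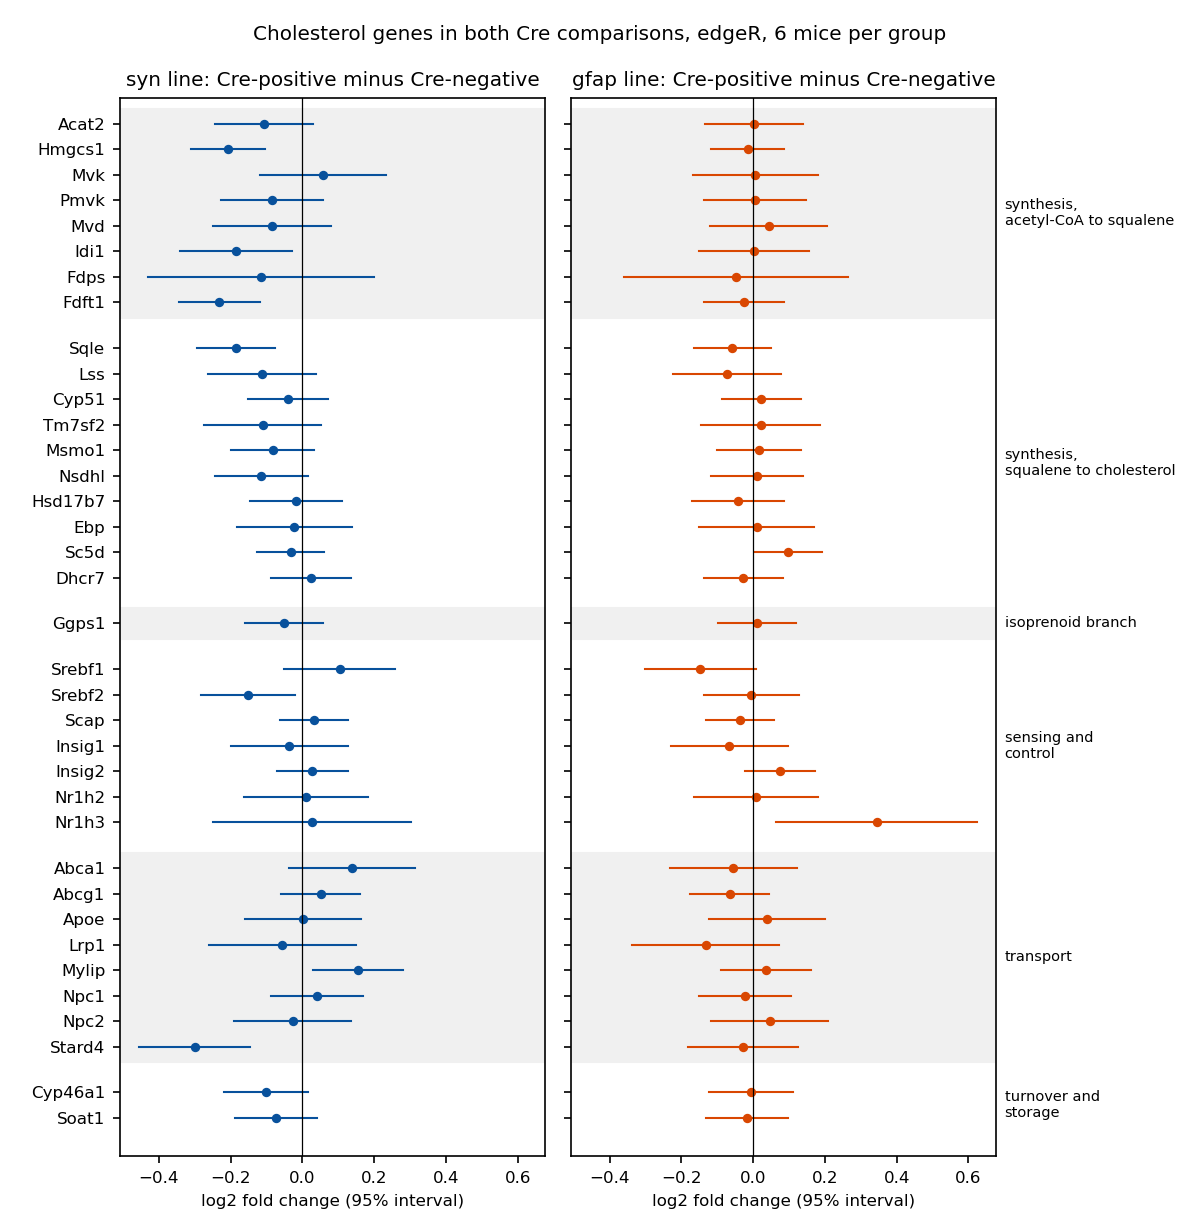
Log2 fold change with 95% interval for each of the 36 genes, Cre-positive minus Cre-negative, in the syn line (left) and the gfap line (right), 6 mice per group. In the syn line 16 of 18 synthesis genes lie left of 0, Stard4 farthest among all members at −0.30, and in the gfap line 7 of 18 do.

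Whether the response differed between lines was tested as the neuronal minus the astrocytic change. No member was called, where 2 genes were (0.0101%). DESeq2 and limma-voom also called 0 members, and 5 had an unadjusted p under 0.05, where 3.5% of genes did. The change of Hmgcs1 was more negative in the syn line by 0.19 (SE 0.07, 95% interval of the difference −0.34 to −0.047, edgeR adjusted p = 1.00), and that of Fdft1 by 0.21 (SE 0.08, −0.36 to −0.048). Stard4 differed by −0.27 (SE 0.11), Sc5d by −0.13 (SE 0.06), Srebf1 by 0.25 (SE 0.11) and Nr1h3 by −0.32 (SE 0.19), all with edgeR adjusted p = 1.00. Srebf1 had its highest values of all 24 libraries in syn-Cre-positive 5 and 6, 106.7 and 93.3 CPM, both Ttr-rich. In the other Ttr-rich libraries Srebf1 ran from 70.6 to 86.9 CPM, and in the remaining syn libraries from 70.5 to 79.3 CPM. It lay at 66.7 to 71.5 CPM in the gfap-Cre-positive group. Without the Ttr-rich libraries its difference was 0.15. Of the 18 synthesis genes 15 had a negative difference, with a median of −0.10, where 49.7% of all genes were negative. Nr1h3, on 80 to 157 counts per library, had an interval that includes 0. So had Apoe (−0.037), Insig1 (0.031), Abca1 (0.19), Cyp46a1 (−0.095) and Srebf2 (−0.15). The median difference of synthesis minus transport genes was −0.18, −0.074 without the Ttr-rich libraries, and −0.30 without syn-Cre-negative 2 and gfap-Cre-negative 4. All 10 oligodendrocyte markers had a positive difference (median 0.19, none called), and their part was not tested.

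Among the 4 comparisons, edgeR called members only between the Cre-negative groups, both labelled EAAT2 +/+. The sources used here do not give the batch, so in this comparison line cannot be told apart from batch. In syn-Cre-negative against gfap-Cre-negative brain, 11 of 36 members passed edgeR at an adjusted p under 0.05, 2 higher and 9 lower. That is 30.6%, where 6161 of all 19726 genes (31.2%) were called, 14.6% higher and 16.6% lower, so the members as a whole stood at the background. The synthesis genes had 8 of 18 called (44.4%), 7 of them lower. That share did not hold under every other setting. With RLE factors, DESeq2 or limma-voom 4 of 18 (22.2%) were called, where 29.4%, 31.4% and 28.9% of all genes were. With upper-quartile factors (27.9% of all genes), a 1 CPM filter (31.6%) or without gfap-Cre-negative 4 (27.2%) it was 3 of 18 (16.7%). With no filter it was again 8 of 18, where 16.2% of all genes were called. Without the Ttr-rich libraries it was 5 of 18 (27.8%, all genes 18.1%). With 1 library left out it ran from 3 to 8 of 18. The transport genes had 1 of 8, Mylip, and the regulators 2 of 7, Insig2 lower and Nr1h3 higher. Log2 fold changes were negative for 15 of 18 synthesis genes (median −0.090, all genes −0.021 with 52.7% negative) and for 4 of 8 transport genes (median 0.016).

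Tm7sf2, a C14 sterol reductase that shares its reaction with the lamin B receptor (chr19:6062821-6068373), was higher in the syn-Cre-negative group, against the other called enzymes. It ran from 16.2 to 19.5 CPM (median 17.4) in syn-Cre-negative and from 10.8 to 16.5 CPM (median 13.3) in gfap-Cre-negative libraries. Only the highest gfap library, number 4, reached into the syn range. It was 32.5% higher, at a log2 fold change of 0.41 (SE 0.08, edgeR adjusted p = 0.00046), with a 95% interval from 0.24 to 0.57. Vps51 covers 12.1% of its exon bases on the same strand. Nr1h3 was higher too, 2.49 to 2.85 CPM against 1.56 to 2.59 CPM, by 0.40 (SE 0.14, edgeR adjusted p = 0.0265), a call kept in 28 of 32 alternative settings. It ran from 1.93 to 3.25 CPM in syn-Cre-positive and from 1.99 to 2.99 CPM in gfap-Cre-positive libraries. The same gfap-Cre-negative libraries entered its astrocytic change and its difference between lines, so these values are not separate findings.

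Mylip (chr13:45389742-45412022) was lower in the syn-Cre-negative group, with 17.2 to 19.6 CPM (median 17.8) against 19.9 to 25.9 CPM (median 20.8) and no overlap. It was 15.9% lower (log2 fold change −0.25, SE 0.06, edgeR adjusted p = 0.00314). Sqle ran from 60.6 to 69.6 CPM against 71.2 to 85.4 CPM, also without overlap, and was lower by 13.6% (log2 fold change −0.21, SE 0.05, edgeR adjusted p = 0.00356). Hsd17b7, a reductase of the late pathway (chr1:169949535-169969241), ran from 18.3 to 20.99 CPM (median 20.1) against 22.0 to 25.2 CPM (median 23.7), log2 fold change −0.24 (SE 0.06, edgeR adjusted p = 0.0048). These 3 members had no overlap with the syn group below, as had 5.43% of all genes. Tm7sf2, Mylip, Sqle and Hsd17b7 were called in all 32 alternative settings. The other lower members, in 13 to 27 of the 32 settings, were Insig2 (−0.16), Hmgcs1 (−0.15), Mvk (−0.24), Fdft1 (−0.15), Dhcr7 (−0.15) and Acat2 (−0.18). The number of members called ranged from 5 to 12 over those settings. Without gfap-Cre-negative 4 it was 7, and without the Ttr-rich libraries 6. Srebf2 (−0.072), Insig1 (−0.16), Abca1 (0.046), Apoe (−0.060) and Cyp46a1 (0.0016) were not called. Without gfap-Cre-negative 4 the median of synthesis minus transport genes was −0.031, against −0.11 with it.

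Other measures also differed between the Cre-negative groups, where line and batch cannot be told apart. Of 10 neuron markers 8 were lower in syn-Cre-negative brain and 1 higher, of 10 oligodendrocyte markers 8 were higher (median log2 fold change 0.36), and all 10 choroid plexus and all 5 ependyma markers were higher (medians 3.73 and 1.63). Summed neuron markers ran from 6316 to 7319 CPM in syn-Cre-negative and from 7684 to 8669 CPM in gfap-Cre-negative libraries, and summed oligodendrocyte markers from 5516 to 8488 CPM and from 4206 to 5374 CPM. Reads outside genes took 8.30 to 8.53% of the syn-Cre-negative files, 11.1% in library 5, and 4.69 to 6.37% of the gfap-Cre-negative files. The part of these in the members' differences was not tested.

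**Figure D5:**
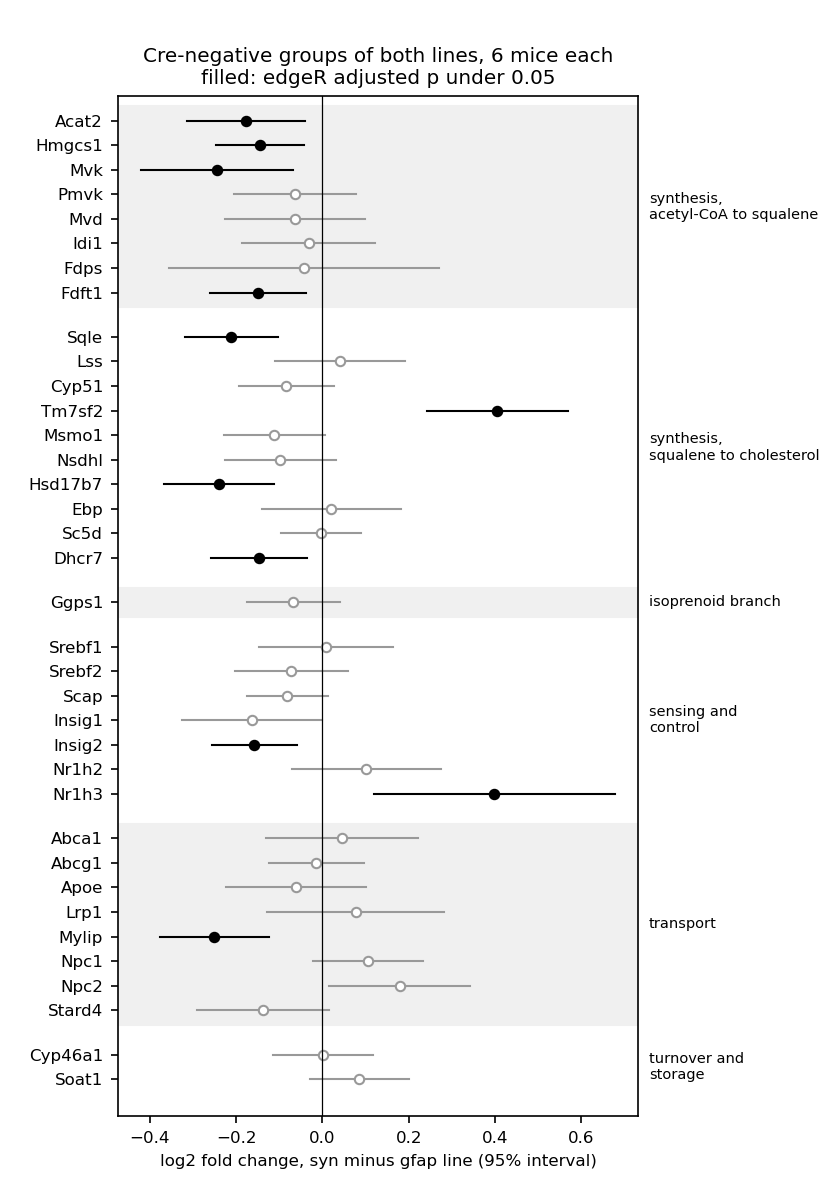
Log2 fold change with 95% interval for each of the 36 genes, syn-Cre-negative minus gfap-Cre-negative, 6 mice per group, filled points for edgeR adjusted p under 0.05. Called synthesis genes lie left of 0 apart from Tm7sf2, at 0.41, and Mylip is the only called transport gene.

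The comparisons share groups, so levels of the leading genes are best read over all 4. Fdft1 averaged 77.5 ± 3.60 CPM in syn-Cre-positive, 90.9 ± 4.07 in syn-Cre-negative, 99.1 ± 5.63 in gfap-Cre-positive and 100.8 ± 10.1 in gfap-Cre-negative mice (SD, n = 6 each). Hmgcs1 averaged 182.1 ± 9.22, 210.2 ± 9.78, 230.0 ± 7.94 and 232.4 ± 20.6 CPM in the same order, and Sqle 57.6 ± 3.35, 65.4 ± 3.69, 72.8 ± 4.47 and 75.7 ± 5.15 CPM. For all 3 enzymes the syn groups lay below the gfap groups, with syn-Cre-positive lowest, and the gfap groups lay within 1 SD of each other. Stard4 averaged 22.3 ± 2.00, 27.4 ± 1.48, 29.6 ± 3.90 and 30.2 ± 2.44 CPM, the same order, of which only the lowest step exceeded the spread. Mylip, by contrast, was lowest in syn-Cre-negative mice, 18.1 ± 1.05 CPM, with 20.2 ± 1.17 in syn-Cre-positive, 21.6 ± 2.19 in gfap-Cre-negative and 22.1 ± 1.03 in gfap-Cre-positive. Apoe averaged 1249 ± 57.1, 1250.4 ± 177.2, 1302 ± 146.6 and 1338 ± 132.9 CPM in syn-Cre-negative, syn-Cre-positive, gfap-Cre-negative and gfap-Cre-positive mice, steps smaller than the spread.

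Neighbouring pathways were read from 4 further lists. None of their genes was called in either Cre comparison. In the neuronal comparison 12 of 14 genes of SREBP-1 and fatty acid synthesis were positive (median 0.028). The lowest p values there were Fads1, a fatty acid desaturase (0.080, SE 0.04), and Scd1, stearoyl-CoA desaturase (0.14, SE 0.06), both with edgeR adjusted p = 1.00. In the gfap line the list had 5 of 14 positive, with Fads1 (0.054) and Acss2, which makes acetyl-CoA from acetate (0.053), lowest in p. Of 9 SREBP processing and degradation partners 5 were negative in the neuronal comparison (Rxra −0.11, Erlin1 −0.071) and 3 in the astrocytic one (Rxra 0.13). Genes of isoprenoid use were negative in 7 of 12 in both, led by Pdss1 (−0.14 in each line), with Fntb (0.083) next in the syn line and Pggt1b (−0.19) in the gfap line. Of 21 other sterol carriers, receptors and esterases 13 and 10 were negative, with Cyp7b1 (0.12) and Lbr (0.067) lowest in p in the syn line and Lipa (0.14) and Abca3 (−0.12) in the gfap line. Between the Cre-negative groups, 4 of 9 SREBP partners were lower. Fatty acid synthesis had 1 higher (Acacb, 0.76) and 1 lower (Me1, −0.19) of 14, isoprenoid use 3 lower of 12, and the other carriers and esterases 5 higher and 2 lower of 21, beside the 31.2% called over all genes.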

How the data were processed

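RNA from brain tissue of 24 mice, 6 per group, was sequenced on an Illumina instrument after lipid tissue purification, per the labels. The files deposited by the authors hold raw read counts per gene. HISAT2, HTSeq 0.6.0, DESeq2 1.6.3 and mm10 are named per the submitters' processing notes. The sources used here do not give the annotation release or the strand setting. The 5 summary lines of each file were left out. Symbols and coordinates are from GENCODE M21 (GRCm38).

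After filterByExpr and TMM scaling, 1 model of 4 groups with 20 residual degrees of freedom gave robust quasi-likelihood tests (edgeR 4.0.16, R 4.3.3). Benjamini-Hochberg adjustment ran over all 19726 genes, and an adjusted p under 0.05 was called. The fit was tested on simulated data whose changes were all larger than any member's in the neuronal comparison. It does not show whether changes as small as those could be detected. P values measure the spread between these mice, whose litters are not stated. Groups follow the labels, and no 2 libraries of a group agreed within sampling noise.

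The members and lists were chosen with earlier results of these data known. In full are given, per Cre comparison, the 3 synthesis and 3 other members with the smallest p, for the Cre-negative groups up to 3 called per direction, and always Apoe, Srebf2, Insig1, Abca1, Cyp46a1 and Slc1a2. From each further list the 2 genes with the smallest p per Cre comparison are named. A gene this rule names is not reported here. Idi1, the other called members and the group means set side by side were chosen after their values were seen. Alternatives were RLE and upper-quartile scaling, other filters, DESeq2 1.42.0, limma-voom (limma 3.58.1), lines fitted alone and libraries left out.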

Additional observations from a re-analysis of the deposited data

Results flagged for a closer look

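In each group of 6 libraries the highest and lowest value of each of the 36 members, of Slc1a2 and of the synthesis minus transport difference were checked for a gap to the rest that is large against the group's range. Of 152 checks 19 stood out (12.5%), where chance gives about 1 in 20 groups, and the genes share libraries.

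Library gfap-Cre-negative 4 accounted for most. It was high for the synthesis genes Pmvk (39.7 CPM, the others 28.2 to 32.1), Fdft1 (119.6, the others 91.8 to 101.8), Sqle (85.4, the others 71.2 to 76.0), Cyp51 (66.0, the others 58.9 to 61.2), Msmo1 (111.8, the others 84.7 to 89.5) and Ebp (15.3, the others 11.7 to 12.7), and for the LXR gene Nr1h2 (40.5, the others 31.8 to 34.0). It was low for Slc1a2 (2494 CPM, the others 3430 to 3980), the Apoe receptor Lrp1 (368.3, the others 535.0 to 608.7) and Npc1 (63.0, the others 73.7 to 76.5). Its synthesis minus transport difference was −1.37, the others −1.71 to −1.64.

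Library syn-Cre-positive 5 was high for Fdft1 (84.8 CPM, the others 75.3 to 76.4) and Sqle (64.1, the others 55.0 to 57.9). Library syn-Cre-positive 6 was low for Slc1a2 (2616 CPM, the others 3009 to 3235) and Ggps1 (48.0, the others 55.3 to 58.6). The remaining values were Sc5d in syn-Cre-negative 5 (63.6 CPM, low), Mylip in gfap-Cre-negative 2 (25.9 CPM, high), Fdft1 in gfap-Cre-positive 2 (88.1 CPM, low) and Abcg1 in gfap-Cre-positive 5 (58.7 CPM, low).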

How the results depend on the processing

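No paired analysis was possible because the replicate numbers only name libraries, and each leading number of the sample titles occurs in 1 group. What those title numbers mark is not stated: if they mark litters or cages, mice of a group share them, and their part cannot be told apart from the group. In the neuronal comparison 5 genes were called with no filter, 14 by DESeq2, 8 by limma-voom, 2 with the line fitted alone, 3 without the Ttr-rich libraries and 1 to 4 when 1 library was left out, against 1. Members called stayed at 0, apart from 1 by limma-voom (Fdft1). The synthesis minus transport median was −0.0093 without the Ttr-rich libraries, and −0.15 to −0.081 with 1 library left out. For the difference between lines it was −0.074 without the Ttr-rich libraries and −0.30 without syn-Cre-negative 2 and gfap-Cre-negative 4. Members called between the Cre-negative groups were 11, but 7 with RLE factors, 5 with upper-quartile factors, 7 by DESeq2 and 7 by limma-voom. They were 10 with no filter and 6 with at least 1 CPM in 6 libraries. They were 6 without the Ttr-rich libraries, 6 without those 2 libraries and 6 to 12 with 1 left out. Genes called there were 3647 without the Ttr-rich libraries, against 6161, and 58.5% of called genes were higher with upper-quartile factors and 57.5% without the Ttr-rich libraries, against 46.8%.

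Among the genes given in full, sign changes concerned log2 fold changes near 0 that were not called. Signs of the other members were followed only as counts. In the neuronal comparison the negative synthesis genes fell from 16 to 10 without the Ttr-rich libraries. In the neuronal comparison Apoe was −0.056 by limma-voom and −0.14 without the Ttr-rich libraries, and −0.065 to 0.040 with 1 library left out. Insig1 was 0.075 without the Ttr-rich libraries and −0.089 to 0.015 with 1 left out. In the astrocytic one Cyp46a1 was 0.015 by limma-voom and 0.024 without the 2 libraries. With 1 left out it ran from −0.024 to 0.024, Srebf2 from −0.048 to 0.038 and Slc1a2 from −0.10 to 0.023. For the difference Insig1 was −0.014 without the 2 libraries. With 1 left out it ran from −0.021 to 0.082, and Apoe from −0.10 to 0.00093. Between the Cre-negative groups Cyp46a1 was −0.016 with no filter, Srebf2 0.018 without the Ttr-rich libraries, and Abca1 −0.022 by limma-voom. Without the 2 libraries Apoe was 0.015 and Abca1 −0.013. With 1 left out Cyp46a1 ran from −0.036 to 0.046, Apoe from −0.088 to 0.014 and Abca1 from −0.018 to 0.089. The cause of these changes was not tested. Low counts limit Fdps and Nr1h3.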
